A study of Mus musculus with 12 samples.

Results

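Mature collagen depends on enzymes that modify procollagen inside the cell and on oxidases that act once it is secreted. The 10 enzymes described here are the lysyl oxidases *Lox*, *Loxl1*, *Loxl2*, *Loxl3* and *Loxl4*, the lysyl hydroxylases *Plod1*, *Plod2* and *Plod3*, and the catalytic prolyl 4-hydroxylase subunits *P4ha1* and *P4ha2*. They were chosen by name, with earlier results of these data known. Each was listed in all 12 libraries, among 23284 genes (sorted osteoblasts) and 24346 genes (MC3T3-E1). All 10 passed the filter on low values in sorted osteoblasts and 9 did in MC3T3-E1 cells, where *Loxl2* lay below it.

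Gene expression was measured by RNA-Seq in a pair of experiments. In the first, viable cells without hematopoietic lineage markers or CD45 but with the cyan reporter (7AAD-Lin-CD45-ECFP+) were sorted from female Col2.3-ECFP mice, in which a type I collagen promoter drives ECFP in mature osteoblasts. The mice were 12 weeks old at the start and received vehicle (3 libraries) or PTH (1-34), the N-terminal fragment of parathyroid hormone, for 3 weeks (3 libraries, daily dose 40 µg/kg, 5 injections a week), and cells were taken 24 h after the last injection. In the second, MC3T3-E1 cells, a preosteoblast line from mouse calvaria, had been transduced with an empty retroviral vector (mock, 3 libraries) or with mouse *Slpi* cDNA (3 libraries) and selected with puromycin, so that mock cells also carried the vector. *Slpi* encodes the secretory leukocyte protease inhibitor. The labels do not say whether the replicates came from separate mice or cultures, so the tests measure the spread between libraries, which may be technical.

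Prolyl 4-hydroxylases act on proline residues of procollagen chains in the endoplasmic reticulum, and the hydroxyproline formed stabilizes the triple helix. Lysyl hydroxylases act on lysine residues of the same chains, which decides the type of crosslink that can form and gives a site for sugar attachment. After secretion, copper-dependent lysyl oxidases convert lysine and hydroxylysine residues to aldehydes, from which the crosslinks of collagen and elastin fibers arise. Both kinds of hydroxylase need iron, oxygen and vitamin C, and *P4ha1*, *P4ha2* and *Plod2* are known targets of hypoxia-inducible factor.

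The authors deposited FPKM, the fragments of a gene scaled to transcript length and to the depth of its library, so that levels of different genes within a library can be set side by side. Sums over all genes ranged from 400838.8 to 462460.2 FPKM per sorted library and from 541932.2 to 599746.4 FPKM per MC3T3-E1 library. *Slpi* itself was at 377, 396 and 386 FPKM in mock libraries and at 2105, 1973 and 1848 in *Slpi* libraries, higher in every library labelled as overexpressing. Of 11 osteoblast markers, 2 (*Col1a1* and *Col1a2*) were listed at 0 in vehicle replicate 3 and in all PTH libraries but between 24170 and 26650 FPKM in the other vehicle libraries, and the remaining 9 were present throughout. Markers of other cells differed between the sorted groups. The summed FPKM of 10 neutrophil markers was 377 to 470 with vehicle and 702 to 2362 with PTH. That of 7 T and NK cell markers was 82.7 to 126 and 0.480 to 18.7, with vehicle most of it *Cd3g* (97.5, 87.3 and 60.4). That of 4 mast cell and basophil markers was 46.7 to 74.5 and 0.269 to 7.71, nearly all *Cpa3* (74.0, 70.7 and 46.7 with vehicle). *Ms4a2* and *Fcer1a* of that list were at 0 in all sorted libraries. PTH replicate 2 also held RNA of 6 striated muscle genes, whose sum was 2094 FPKM there and at most 15.2 in any other sorted library.

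In vehicle-treated osteoblasts the enzymes covered a wide range of levels. *Lox* (428 ± 43.8 FPKM, SD, n = 3) and *Plod2* (410 ± 43.4) were the most abundant, both at percentile 98.9 of the tested genes by mean vehicle level, and their libraries overlapped. Below them came *Loxl2* (141 ± 16.7), *P4ha1* (75.5 ± 7.57), *P4ha2* (49.5 ± 6.49) and *Loxl4* (35.7 ± 3.07), each apart from its neighbours in the order. *Plod1* (26.9 ± 4.02) and *Plod3* (21 ± 1.79) overlapped, and *Loxl3* (14.1 ± 2.72) and *Loxl1* (6.54 ± 0.581) were lowest. With PTH, *Plod2* and *Lox* still led and still overlapped, *P4ha1* and *P4ha2* came next, and *Loxl2* moved from rank 3 to rank 5, where it overlapped with *P4ha2*.

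**Figure D1:**
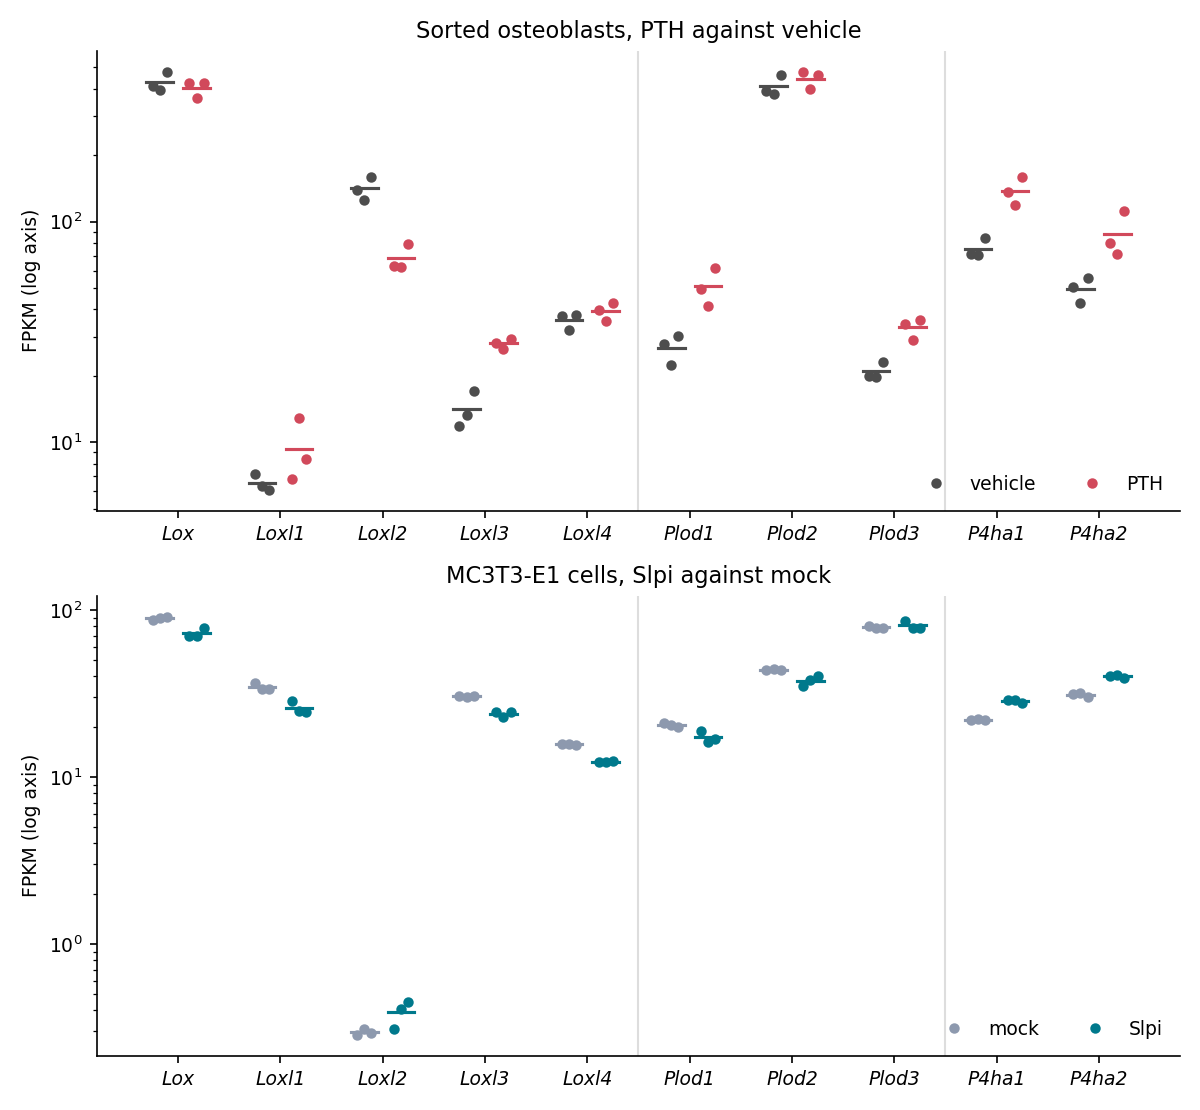
FPKM on a log axis of the 10 enzymes in every library (points) with the group mean (bar), for sorted osteoblasts (top) and MC3T3-E1 cells (bottom), with vertical lines between the enzyme families. *Loxl2* lay between 126 and 159 FPKM with vehicle and between 62.5 and 79.3 with PTH, and below 0.46 in all MC3T3-E1 libraries.

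PTH treatment was compared with vehicle to ask which genes change in osteoblasts under intermittent PTH. Of the 10 enzymes, 5 rose (*Loxl3*, *Plod1*, *Plod3*, *P4ha1* and *P4ha2*), *Loxl2* fell, and *Lox*, *Loxl1*, *Loxl4* and *Plod2* did not pass the test, which was an adjusted p under 0.05 from limma on log2(FPKM + 1) over 13004 genes. Over all these genes 15.2% passed, 6.38% as higher and 8.85% as lower. The enzymes were chosen with earlier results of these data known, so this comparison does not test them as a set. The median log2 fold change was 0.52 over the 10 enzymes and 0.00661 over all genes tested. The groups did not overlap for the same 6 enzymes, against 40.4% of all genes (19.5% higher and 20.9% lower), and the exact permutation test (two-sided, 3 against 3) gave its smallest possible p of 0.10 for each of these 6. *Loxl2* was the only enzyme that changed at least 2-fold at an unadjusted p under 0.05, as 5.59% of all genes did (1.24% higher and 4.35% lower). In bulk RNA, fewer cells of a type and less RNA per cell cannot be told apart. The adjusted calls rested on few libraries. Without vehicle replicate 1 or vehicle replicate 2 none of the 10 enzymes passed, when 1 and 0 of all genes did. At an unadjusted limma p under 0.05, 6 enzymes passed in each case, as did 3181 of 12899 and 3053 of 12835 genes tested. Without PTH replicate 1 there were 3 enzymes with adjusted calls, against 4.47% of all genes. Without PTH replicate 2, the library with muscle RNA, 6 enzymes passed, against 12.3% of all genes.

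**Figure D2:**
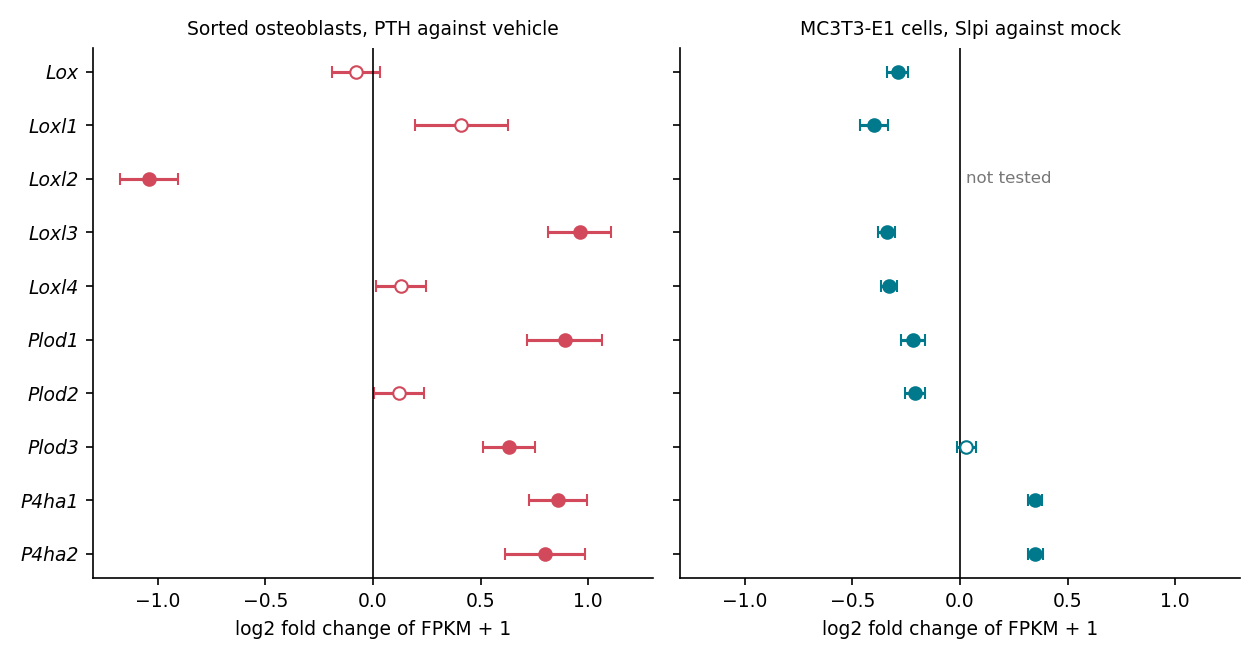
Log2 fold change of FPKM + 1 with its standard error (bars) for each enzyme, PTH against vehicle (left) and *Slpi* against mock (right), 3 libraries per group. Filled points passed an adjusted p of 0.05 in limma; *Loxl2* had the lowest value on the left, -1.04, and was not tested on the right, and the open points of *Loxl1*, *Loxl4* and *Plod2* (left) and *Plod3* (right) changed sign under another scaling.

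Among the lysyl oxidases, *Loxl2* and *Loxl3* moved in opposite directions with PTH. *Loxl2* (chr14:69609068-69695834 on mm10, plus strand) encodes an oxidase with scavenger receptor domains that acts on fibrillar and basement membrane collagen. It was at 139, 126 and 159 FPKM with vehicle and at 62.9, 62.5 and 79.3 with PTH, and the lowest vehicle library was well above the highest PTH library. The fitted change on the log2 scale was -1.04 (standard error, SE, 0.135, adjusted p = 0.0139 by limma) and lay between -1.15 and -0.95 when any 1 library was omitted. Exons of *Loxl2* overlap those of the antisense gene *Gm27177*.

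*Loxl3* (chr6:83034173-83052562, plus strand), a close relative of *Loxl2* known for its part in palate and spine formation, was at 11.8, 13.3 and 17.1 FPKM with vehicle and at 28.3, 26.4 and 29.5 with PTH. All PTH libraries were higher than all vehicle libraries, by 0.96 on the log2 scale (SE 0.145, adjusted p = 0.0159 by limma). Its exons overlap those of *Htra2* on the opposite strand, and the use of strand in counting was not given in the sources used here. *Htra2* had a log2 fold change of -0.21 (adjusted p = 0.369 by limma) in the same libraries.

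The other lysyl oxidases did not pass the test. *Lox*, the founding member of the family and the main crosslinking oxidase of bone collagen, was at 411, 396 and 478 FPKM with vehicle and at 424, 365 and 423 with PTH. These groups overlapped, and the 95% interval of the log2 fold change ran from -0.35 to 0.18. With each library set against 8 osteoblast markers, a scaling under which the median of all genes was -0.44, *Lox* was at -0.53 (adjusted p = 0.024 by limma). *Loxl4* (chr19:42593982-42612813, minus strand) was at 37.3, 32.2 and 37.7 FPKM with vehicle and at 39.8, 35.3 and 42.7 with PTH. *Loxl1* (chr9:58287738-58313186, minus strand), the family member best known for elastic fibers, was at 7.20, 6.35 and 6.09 FPKM with vehicle and at 6.79, 12.8 and 8.37 with PTH, highest in the library with muscle RNA. Intervals of the log2 fold change ran from -0.14 to 0.40 for *Loxl4* and from -0.09 to 0.92 for *Loxl1*, and both genes changed sign under osteoblast marker scaling.

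Of the lysyl hydroxylases, *Plod1* and *Plod3* rose and the abundant *Plod2* did not pass the test. *Plod1* (chr4:147909753-147936767, minus strand), which acts on lysines of the triple helix, was at 27.9, 22.5 and 30.3 FPKM with vehicle and at 49.6, 41.5 and 61.7 with PTH. The PTH libraries were all higher, with a log2 fold change of 0.89 (SE 0.174, adjusted p = 0.0243 by limma). *Plod3* (chr5:136987019-136996648, plus strand), whose product also transfers sugars to hydroxylysine, was at 20.1, 19.9 and 23.1 FPKM with vehicle and at 34.4, 29.1 and 36.0 with PTH. Here too the groups were apart, by 0.63 on the log2 scale (SE 0.121, adjusted p = 0.0231 by limma), but with osteoblast marker scaling the value was 0.18 (adjusted p = 0.223 by limma). Exons of *Plod3* overlap those of *Znhit1* on the opposite strand, which had a log2 fold change of 0.10 (adjusted p = 0.676 by limma).

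*Plod2* (chr9:92542223-92608428, plus strand), which acts on lysines of the telopeptides at the chain ends, was at 390, 380 and 460 FPKM with vehicle and at 476, 397 and 462 with PTH. The groups overlapped, the 95% interval of the log2 fold change ran from -0.16 to 0.39, and its sign was reversed with quantile normalization and with osteoblast marker scaling. Its exons overlap those of *Gm38391* on the opposite strand, as those of *Lox* overlap the antisense gene *AC161119.1*.

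Both prolyl 4-hydroxylase subunits rose. *P4ha1* (chr10:59323296-59373304, plus strand) was at 71.5, 70.8 and 84.2 FPKM with vehicle and at 136, 119 and 159 with PTH. *P4ha2* (chr11:54100095-54131665, plus strand) was at 50.4, 42.6 and 55.5 FPKM with vehicle and at 80.0, 71.2 and 112 with PTH. For both genes all PTH libraries lay above all vehicle libraries. The log2 fold changes were 0.86 for *P4ha1* (SE 0.133, adjusted p = 0.0167 by limma) and 0.80 for *P4ha2* (SE 0.185, adjusted p = 0.0354 by limma). The call of *P4ha2* was close to the threshold, and was lost with no filter (adjusted p = 0.0534), without a trend in the variance (0.0509), with osteoblast marker scaling (0.0543), and without any of the vehicle replicates or PTH replicate 1 (0.0522 to 0.127).

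Sequences before the start sites are shown for *P4ha1* and *P4ha2*, which rose in both experiments, and for *Plod1*, to set the genes with hydroxylase activity side by side. They are the 250 bases before the RefSeq start on GRCm38.p6, 5′ to 3′ on the strand of the gene, from a table that held 5 of the 10 enzymes (*Loxl4*, *Plod1*, *Plod3*, *P4ha1* and *P4ha2*), and the windows of *Loxl4* and *Plod3* hold annotated exons and are not printed. The window of *P4ha2* lies inside the GENCODE span of the gene given above, which starts farther upstream, and holds no annotated exon. Capitals mark matches on either strand to ACGTG or GCGTG, cores of hypoxia response elements, or to TGACG, a core of cAMP response elements.
P4ha1, chr10:59323046-59323295, plus strand: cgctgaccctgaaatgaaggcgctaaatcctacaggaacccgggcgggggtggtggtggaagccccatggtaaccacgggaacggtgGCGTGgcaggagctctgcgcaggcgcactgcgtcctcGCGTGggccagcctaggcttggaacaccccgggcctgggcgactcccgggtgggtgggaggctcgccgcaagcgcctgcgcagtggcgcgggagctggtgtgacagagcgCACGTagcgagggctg
P4ha2, chr11:54100674-54100923, plus strand: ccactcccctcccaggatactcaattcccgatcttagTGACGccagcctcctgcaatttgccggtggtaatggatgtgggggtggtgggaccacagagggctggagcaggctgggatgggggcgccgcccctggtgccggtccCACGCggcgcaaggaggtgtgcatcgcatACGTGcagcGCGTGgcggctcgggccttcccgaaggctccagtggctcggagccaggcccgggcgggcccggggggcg
Plod1, chr4:147936777-147937026, minus strand: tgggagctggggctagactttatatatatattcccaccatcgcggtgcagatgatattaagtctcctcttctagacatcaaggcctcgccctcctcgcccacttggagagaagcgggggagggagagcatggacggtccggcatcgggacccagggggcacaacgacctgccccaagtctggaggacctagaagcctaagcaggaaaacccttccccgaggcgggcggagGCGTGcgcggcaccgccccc

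The window of *P4ha1* held 1 ACGTG and 2 GCGTG matches, and that of *P4ha2* held 1 ACGTG, 2 GCGTG and 1 TGACG match. The window of *Plod1* held 1 GCGTG match. The motifs can share the letters CG and neighbouring bases, but no match overlapped another. Of 32851 promoter windows of the same length, 16.6% held ACGTG, 28.2% GCGTG and 17.8% TGACG. The GC content was 69.6% for *P4ha1*, 70.0% for *P4ha2* and 61.6% for *Plod1*. A match describes letters only, and binding was not measured.

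The share of each enzyme in the summed FPKM of its family does not depend on the scaling between libraries. *Loxl2* made up 23.0%, 21.9% and 22.8% of the lysyl oxidase sum with vehicle and 11.2%, 12.5% and 13.6% with PTH, a difference of -10.1 percentage points. *Loxl3* made up 1.95%, 2.33% and 2.45% with vehicle and 5.04%, 5.25% and 5.06% with PTH. *Lox* gained 5.16 percentage points over its vehicle share of 68.4% although its own level did not pass the test. Its share was thus higher in every PTH library while its FPKM overlapped between the groups.

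Among the lysyl hydroxylases *Plod2* remained the main transcript, with 89.5% ± 0.464 (SD, n = 3) of the family sum with vehicle and 84.1% ± 1.39 with PTH. *Plod1* went from 5.86% ± 0.526 to 9.58% ± 1.25 and *Plod3* from 4.59% ± 0.105 to 6.27% ± 0.148. *P4ha1* made up 60.5% ± 1.90 and 61.4% ± 2.43 of the sum of *P4ha1* and *P4ha2*, and these shares overlapped. In all, 8 of the 10 shares did not overlap between the groups, and for each of these 8 the two-sided exact permutation test gave p = 0.10, the smallest it can give. Shares within a family add up to a fixed total and are not independent of each other.

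The family sums moved less than some of their members. The 5 lysyl oxidases summed to 607, 574 and 698 FPKM with vehicle and to 562, 502 and 583 with PTH, and the lysyl hydroxylases to 438, 422 and 513 and to 560, 468 and 559, with overlap in both families. The sum of *P4ha1* and *P4ha2* was 122, 113 and 140 FPKM with vehicle and 216, 190 and 271 with PTH, with every PTH library higher.

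**Figure D3:**
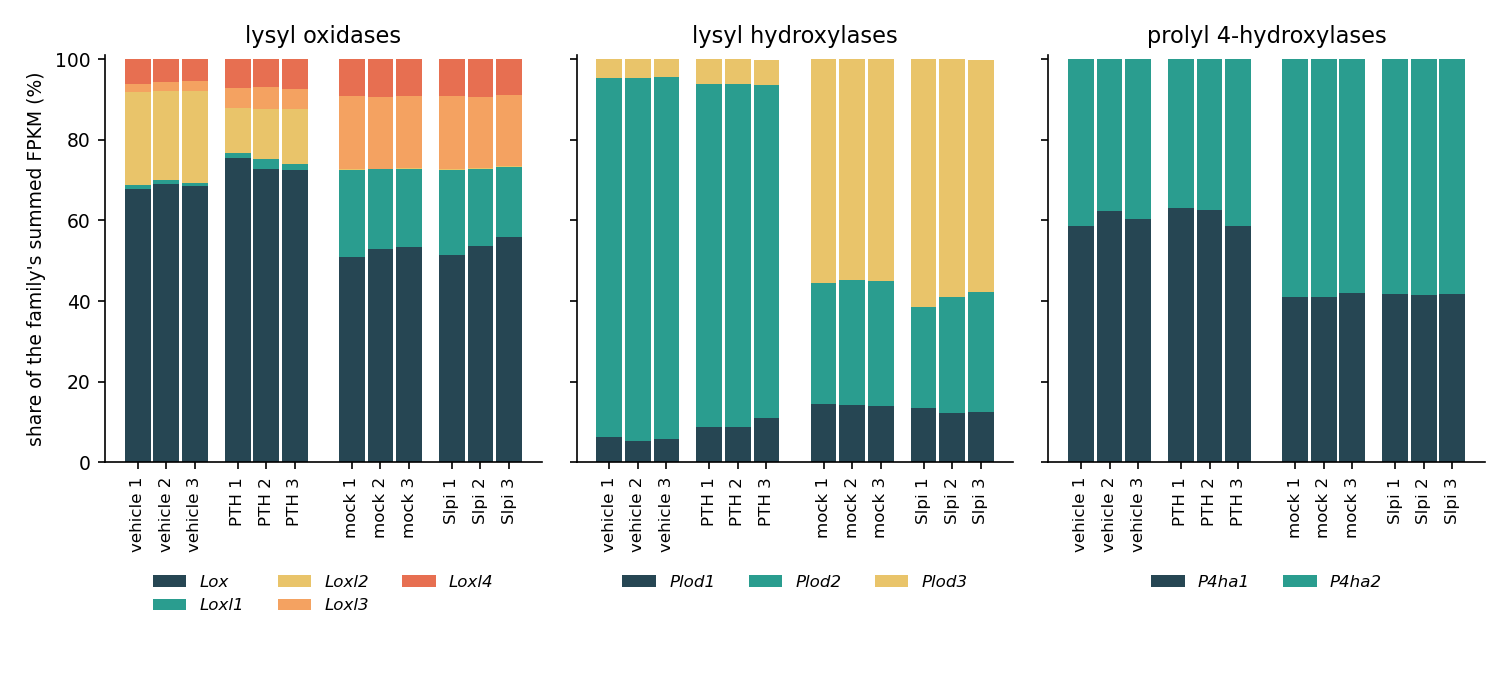
Share of each enzyme in the summed FPKM of its family (%), 1 bar per library, for the lysyl oxidases, lysyl hydroxylases and prolyl 4-hydroxylases (*P4ha1* and *P4ha2* only). The *Loxl2* share was 22.6% on average with vehicle and 12.4% with PTH, and *Plod2* made up most of the lysyl hydroxylase sum in sorted osteoblasts, whereas *Plod3* did in MC3T3-E1 cells (55.1% in mock libraries).

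Other genes of the collagen pathway were taken from 4 lists, chosen with earlier results of these data known. Of all genes, 6.38% passed as higher with PTH and 8.85% as lower. Of 16 genes for folding and modification in the endoplasmic reticulum, 11 rose with PTH, 0 fell and 5 did not pass, with a median log2 fold change of 0.81. On the log2(FPKM + 1) scale the largest rises were those of *P3h4* (listed as *Leprel4*), a partner of lysyl hydroxylase 1, and *Fkbp10*, a prolyl isomerase. Next came *Serpinh1*, the collagen chaperone HSP47, and *Crtap* and *P3h1* (*Lepre1*), which together modify proline at the 3 position. *P3h2* also passed and was low, and its ratio of mean FPKM (2.30) was above that of *P3h4* (2.17). *Serpinh1* was at 995, 982 and 1276 FPKM with vehicle and at 1962, 1676 and 2786 with PTH. *Fkbp10* was at 149, 137 and 163 FPKM with vehicle and at 286, 250 and 388 with PTH. Every PTH library exceeded every vehicle library for both genes, with log2 fold changes of 0.96 and 1.02 (adjusted p = 0.0289 and 0.0179 by limma), and *Serpinh1* did not pass with no filter (adjusted p = 0.0567). The log2 fold changes of *P3h4*, *Crtap* and *P3h1* were 1.09, 0.92 and 0.84 (adjusted p = 0.0192, 0.0227 and 0.0247 by limma). *P4hb*, the subunit with which *P4ha1* and *P4ha2* products pair, is named after its values were seen: it rose by 0.79 on the log2 scale (adjusted p = 0.0184 by limma). The third catalytic subunit, *P4ha3*, also named afterwards, was at 4.72, 2.40 and 4.23 FPKM with vehicle and at 7.99, 7.71 and 5.91 with PTH and did not pass (adjusted p = 0.054 by limma).

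Of 18 tested genes for processing, fibril assembly and lysyl oxidase support, 9 rose, 0 fell and 9 did not pass, against 6.38% of all genes higher and 8.85% lower. The median log2 fold change of the 18 was 0.59. The largest log2 fold changes were those of *Pcolce* (1.12), an enhancer of procollagen C-proteinase, *Efemp2* (1.04), which binds lysyl oxidase on elastic fibers, *Fn1* (1.04), fibronectin, *Bmp1* (0.93), the proteinase that cleaves the C-propeptide of collagen and activates lysyl oxidase, and *Pcolce2* (0.88). Their limma adjusted p lay at 0.0171, 0.0143, 0.0138, 0.0215 and 0.0312, and *Pcolce2* lost its call with osteoblast marker scaling (0.43, adjusted p = 0.24). *Bmp1* was at 172, 160 and 205 FPKM with vehicle and at 319, 286 and 432 with PTH, and *Pcolce* at 308, 281 and 369 and at 653, 578 and 878. For both the groups were apart, with PTH higher.

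The substrates and the hypoxia genes had fewer calls. Of 10 fibrillar collagen chains and elastin, *Col5a1* and *Col5a2* rose, by 0.75 and 0.61 on the log2 scale (adjusted p = 0.0247 and 0.047 by limma). The median was 0.05 with *Col1a1* and *Col1a2* included, whose zeros enter it as large falls (-9.75 and -9.76), so it understates the other substrates. *Col5a2* lost its call with a pseudocount of 0.1, no filter, no trend and all 3 other scalings (adjusted p between 0.0504 and 0.163 by limma), and *Col5a1* with quantile normalization (0.41, adjusted p = 0.0845). *Col1a1* and *Col1a2*, the main substrates in bone, were listed at 0 in 4 of the 6 sorted libraries, so that no level of the substrate can be set beside the enzymes there. Of 13 genes induced by hypoxia-inducible factor, 1 rose, *Vegfa*, by 0.65 (adjusted p = 0.0251 by limma), and the median log2 fold change was 0.18. The call of *Vegfa* was lost with quantile normalization (0.38, adjusted p = 0.0602 by limma) and with osteoblast marker scaling (0.20, adjusted p = 0.293). Over the 4 lists 23 of 57 tested genes (40.4%) passed, all higher, against 15.2% of all genes. The lists were chosen with earlier results of these data known, so the comparison with all genes does not test them. None of the 57 passed without vehicle replicate 1 or 2, and 7 did without PTH replicate 1, against 4.47% of all genes. At an unadjusted limma p under 0.05, 26 of the 57 passed without vehicle replicate 1 and 26 without vehicle replicate 2. Among all genes 3181 of 12899 and 3053 of 12835 did. With osteoblast marker scaling 12 of the pathway genes were called higher and 4 lower. Of all genes 24.2% were called under that scaling, and 3.72% of those calls were higher.

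**Figure D4:**
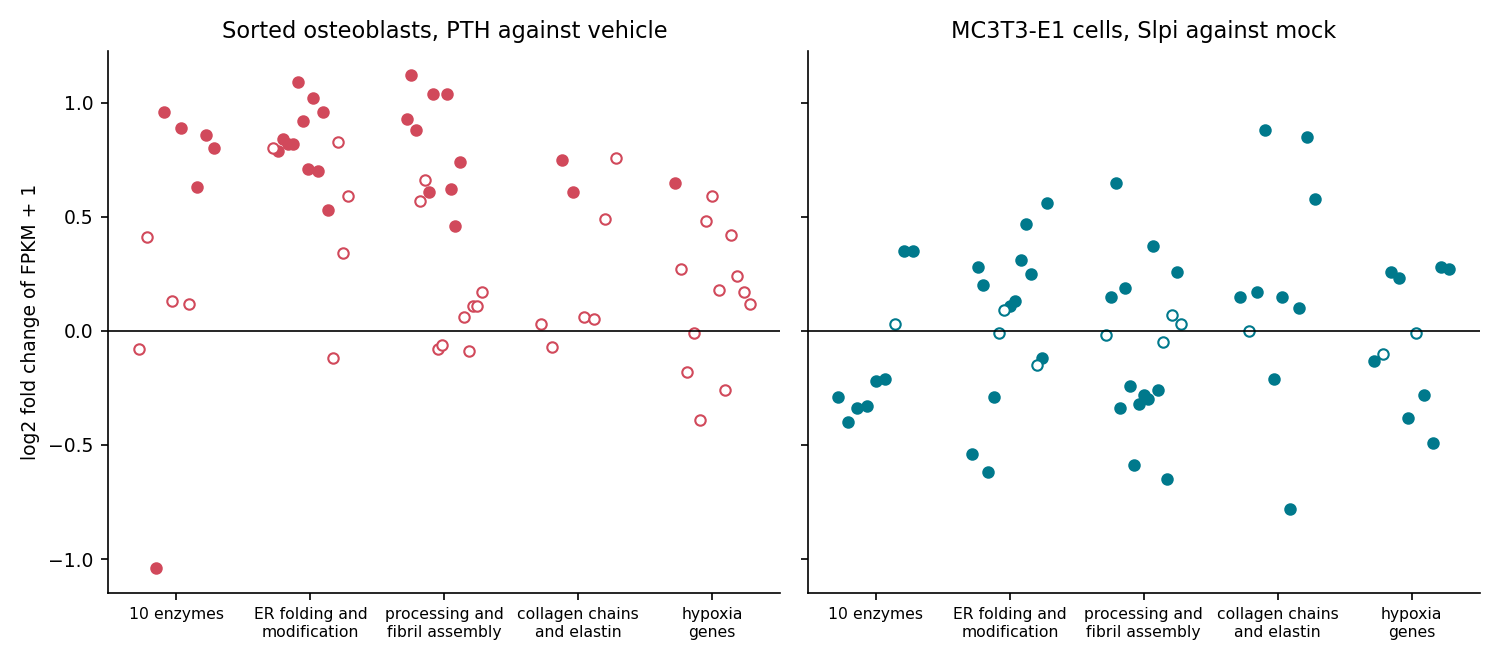
Log2 fold change of FPKM + 1 for the 10 enzymes and each gene of the 4 pathway lists (points; filled where limma's adjusted p was under 0.05), PTH against vehicle (left) and *Slpi* against mock (right). The medians of the lists from left to right were 0.52, 0.81, 0.59, 0.05 and 0.18 with PTH and -0.22, 0.11, -0.05, 0.15 and -0.06 with *Slpi*. *Col1a1* and *Col1a2*, listed at 0 in 4 of 6 sorted libraries, are not drawn on the left but are counted in the median of 0.05.

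Markers of several cell types differed between the same groups, in a comparison in which 15.2% of all genes passed (6.38% higher and 8.85% lower). Of 11 osteoblast markers, *Alpl* and *Spp1* rose (log2 fold changes of 0.60 and 0.81), 0 fell, and the median, with the chains listed at 0 included, was 0.36. Of 5 chondrocyte markers, *Sox9* and *Acan* rose by 0.93 each, *Col9a1* and *Matn3* (1.04 and 1.11) did not pass, and the median was 0.93. The summed FPKM of the list was 589 to 705 with vehicle and 603 to 732 with PTH. Nearly all of this sum was *Col2a1* (598, 566 and 676 with vehicle, 661, 541 and 686 with PTH), with a log2 fold change of 0.03. The sum of 5 stromal fibroblast markers was 64.2 to 76.02 and 73.7 to 90.5 FPKM, with 2 of them higher. That of 5 endothelial markers was at most 5.73 FPKM in any sorted library. Of 10 neutrophil markers tested 7 rose, and of 5 tested T and NK cell markers 4 fell. *Cd3d*, *Cd3e* and *Cd3g* were at 0 in at least 1 PTH library and above 0 in all vehicle libraries. Of 2 tested mast cell and basophil markers 1 fell, *Cpa3*. The sum of 5 macrophage markers, of which 4 were listed, was 36.6 to 64.2 FPKM with vehicle and 29.2 to 107 with PTH, and that of 4 megakaryocyte markers was 1.79 to 4.56 and 2.41 to 177. The part of these cells in the values of the 10 enzymes was not tested.

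The genes nearest in pattern to the 3 enzymes with the largest called changes were sought over all 12 libraries, by Euclidean distance of log2(FPKM + 1) centred within each experiment, among the genes tested in both. Nearest to *Plod1* were *Mrc2*, the collagen uptake receptor Endo180, and *Nucb1*, which encodes nucleobindin 1, at distances of 0.219 and 0.220, where the median over 10094 genes was 1.36. *Loxl3* had *Fam171a2* and *Pld3* as neighbours (0.325 and 0.328, median 1.43). For *Loxl2*, *Dbt* and *Tbl3* were nearest, at 0.388 and 0.429, with a median of 1.48 over 10095 genes. *Loxl2* itself was not tested in MC3T3-E1 cells, where its values of 0.286 to 0.451 FPKM leave little pattern on this scale. *Mrc2* had log2 fold changes of 0.82 with PTH and -0.25 with *Slpi*. These distances describe the 12 libraries, in which group differences weigh most.

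*Slpi*-overexpressing and mock MC3T3-E1 cells were compared to ask which genes change with *Slpi* in an osteoblastic line. The lysyl oxidases *Lox*, *Loxl1*, *Loxl3* and *Loxl4* and the lysyl hydroxylases *Plod1* and *Plod2* fell, *P4ha1* and *P4ha2* rose, and *Plod3* did not pass. These were 8 of the 9 enzymes tested, in a comparison in which 60.8% of 11466 genes passed (31.9% higher and 28.9% lower), so that the sizes say more than the count. The log2 fold changes lay between -0.40 and 0.35 and their median was -0.22, against 0.00414 over all genes, and none reached 2-fold, which 1.13% of all genes did at an unadjusted p under 0.05 (0.75% higher and 0.384% lower). The groups did not overlap for the same 8 enzymes, against 67.1% of all genes (34.9% higher and 32.2% lower). The same 8 enzymes passed whichever library was left out.

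Of the lysyl oxidases *Lox* was at 86.5, 88.9 and 91.3 FPKM in mock libraries and at 69.6, 69.9 and 77.8 in *Slpi* libraries. *Loxl1* was at 36.7, 33.5 and 33.4 FPKM and at 28.6, 24.8 and 24.3, and *Loxl3* at 30.7, 30.0 and 30.7 and at 24.5, 22.7 and 24.4. For each gene the *Slpi* libraries were all lower. *Loxl4* spread least, at 15.8, 15.8 and 15.6 FPKM in mock and 12.3, 12.3 and 12.4 in *Slpi* libraries. The log2 fold changes of *Lox*, *Loxl1*, *Loxl3* and *Loxl4* were -0.29, -0.40, -0.34 and -0.33, with standard errors of 0.0476, 0.0651, 0.0394 and 0.0351 (adjusted p = 0.000886, 0.000853, 0.000146 and 0.0001 by limma). *Loxl2* was near the limit of detection, at 0.286, 0.309 and 0.292 FPKM in mock and 0.308, 0.409 and 0.451 in *Slpi* libraries, and was not tested. *Htra2*, which overlaps *Loxl3*, had a log2 fold change of -0.08 (adjusted p = 0.0924 by limma).

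Of the lysyl hydroxylases *Plod1* and *Plod2* fell and *Plod3* did not pass. *Plod1* was at 21, 20.3 and 19.9 FPKM in mock and at 18.9, 16.2 and 16.9 in *Slpi* libraries, and *Plod2* at 43.6, 44.1 and 43.8 and at 35.1, 37.9 and 40.2. In each case the *Slpi* libraries were all lower, by a log2 fold change of -0.22 (SE 0.0566, adjusted p = 0.00878 by limma) and -0.21 (SE 0.0478, adjusted p = 0.00484 by limma). *Plod3* was at 80.6, 77.8 and 78.1 FPKM and at 86.4, 77.9 and 78.1, and the groups overlapped. The 95% interval of its log2 fold change ran from -0.07 to 0.14, and the sign turned with quantile normalization, with scaling to a fixed sum and without *Slpi* replicate 1.

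*P4ha1* and *P4ha2* rose with *Slpi* as well, whereas the third catalytic subunit, *P4ha3*, fell (log2 fold change -0.54). *P4ha1* was at 21.9, 22.2 and 21.9 FPKM in mock and at 28.7, 28.7 and 27.8 in *Slpi* libraries. *P4ha2* was at 31.4, 31.8 and 30.0 FPKM and at 40.2, 40.7 and 38.9. The groups were far apart against their spread for both, and each had a log2 fold change of 0.35 (SE 0.0331 and 0.0364, adjusted p = 5.0e-05 and 8.3e-05 by limma). *P4ha1* made up 41.4% ± 0.567 (SD, n = 3) of the sum of the pair in mock and 41.6% ± 0.171 in *Slpi* libraries, an overlap.

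The shares of the lysyl hydroxylases did not overlap between mock and *Slpi* libraries, whereas those of the tested lysyl oxidases did. The lysyl oxidase sum was 170, 169 and 171 FPKM in mock and 135, 130 and 139 in *Slpi* libraries, with every *Slpi* library lower. *Plod3* made up 55.5%, 54.7% and 55.1% of the lysyl hydroxylase sum in mock and 61.5%, 59.0% and 57.7% in *Slpi* libraries. Altogether 4 of the 10 shares did not overlap, those of the 3 lysyl hydroxylases and of the barely detected *Loxl2*, each at the smallest exact permutation p of 0.10, and without *Slpi* replicate 1 there were 7.

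Of the other pathway genes, 42 of 52 tested passed in MC3T3-E1 cells, 24 higher and 18 lower, against 60.8% of all genes, and 16 were higher and 23 lower when each library was scaled to the same sum of FPKM. In the endoplasmic reticulum list 8 of 15 rose and 4 fell. *Creb3l1*, which encodes the transcription factor OASIS of the secretory pathway, *Serpinh1* and the prolyl isomerase gene *Fkbp14* had log2 fold changes of 0.56, 0.47 and 0.31, whereas those of *P3h2* and *P4ha3* were -0.62 and -0.54 (limma adjusted p between 4.05e-06 for *P4ha3* and 0.000346 for *Fkbp14*). *P4ha3* was at 113, 112 and 112 FPKM in mock and at 78.4, 75.5 and 76.8 in *Slpi* libraries. The third subunit thus fell while *P4ha1* and *P4ha2* rose, and its level was above theirs in every library.

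The other lists also had call shares to be read against the 60.8% of all genes. Of 17 genes for processing, fibril assembly and oxidase support 5 rose and 8 fell, with the largest log2 fold changes for *Tgm2* (-0.65), the crosslinking enzyme transglutaminase 2, *Pcolce2* (0.65), *Fbln5* (-0.59), an elastic fiber protein, *Lum* (0.37), lumican, and *Adamts2* (-0.34), which cleaves the N-propeptide. Of the 10 substrates 7 rose and 2 fell. *Col3a1* rose from 853, 856 and 791 FPKM to 1593, 1569 and 1453, and its libraries were well apart (log2 fold change 0.88, adjusted p = 4.45e-06 by limma). On the same log2(FPKM + 1) scale *Col11a2*, *Eln*, *Col5a3* and *Col5a1* were at 0.85, 0.58, -0.78 and -0.21. *Col11a2* and *Eln* were low, and their ratios of mean FPKM, 2.24 for each, were above that of *Col3a1* (1.85). Of 10 tested hypoxia genes 4 rose and 4 fell, among them *Ndrg1* (-0.49), *Egln3* (-0.38), *Egln1* (0.28), *Pdk1* (-0.28) and *Kdm3a* (0.27).

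Blood and endothelial cell markers were low or at 0 in the line, whereas chondrocyte and stromal fibroblast markers were present. The 7 T and NK cell and 4 mast cell and basophil markers were at 0 in all 6 libraries, and the neutrophil and endothelial markers summed to at most 1.74 and 0.222 FPKM. Macrophage and megakaryocyte markers summed to at most 3.80 and 2.91 FPKM. Of 10 tested osteoblast markers 7 rose and 1 fell, with a median log2 fold change of 0.65, of 4 tested stromal fibroblast markers 1 rose and 3 fell, and of 3 tested chondrocyte markers 2 rose and 1 fell, *Sox9* by -0.74, in a comparison in which 60.8% of all genes passed. The sum of the stromal list was 119 to 126 FPKM in mock and 86.9 to 93.7 in *Slpi* libraries, lower as the lysyl oxidases were, and that of the chondrocyte list, in which *Acan* was at 0 throughout, was 128 to 139 and 119 to 138 FPKM. Whether these shifts bear on the enzymes was not tested.

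Side by side, *P4ha1* and *P4ha2* rose in both experiments, *Loxl3* and *Plod1* rose with PTH (0.96 and 0.89) and fell with *Slpi* (-0.34 and -0.22), and *Plod3* rose with PTH and did not pass with *Slpi*. The difference between the experiments was not tested, since they used different cells and their tables were analysed apart. In mock cells the order of levels was *Lox* (88.9 ± 2.39 FPKM, SD, n = 3), *Plod3* (78.8 ± 1.52), *Plod2* (43.8 ± 0.254), *Loxl1* (34.5 ± 1.86), *P4ha2* (31.1 ± 0.923), *Loxl3* (30.5 ± 0.426), *P4ha1* (22.0 ± 0.196), *Plod1* (20.4 ± 0.578), *Loxl4* (15.7 ± 0.128) and *Loxl2* (0.296 ± 0.0119). Of these neighbours only *P4ha2* and *Loxl3* overlapped. *Loxl2*, rank 3 of 10 in vehicle-treated osteoblasts, was thus last in the line, and *Plod3*, rank 8 there, was at rank 2.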

How the data were processed

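FPKM of 3 vehicle-treated and 3 PTH-treated libraries of sorted osteoblasts and of 3 mock and 3 *Slpi* libraries of MC3T3-E1 cells were analysed. The authors deposited FPKM per gene and library. By their methods, single-end reads of 75 bases from a HiSeq 2500 were mapped to mm10 with TopHat2 2.0.13, Bowtie2 2.2.3 and SAMtools 0.1.19, and values were calculated with Cuffnorm 2.2.1. The annotation, the scaling option and the use of strand are not given in the sources used here. The methods give SMART-Seq v4 and KAPA kits for RNA-Seq, whereas the labels of MC3T3-E1 libraries give a TruSeq stranded mRNA kit. PTH replicate 3 was identified by its title. Library totals are unknown from FPKM. The step of 1 read in low FPKM gave relative depths of 0.787 to 1.40 among sorted libraries (vehicle replicate 1 = 1). In MC3T3-E1 files, values are rounded and depth was not estimated. No interval for counting error was computed.

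A gene entered the test where any of the 6 libraries of an experiment reached an FPKM of 1. Values were tested on log2(FPKM + 1), over 13004 and 11466 genes, so that fold changes of low genes are understated. Each experiment was fitted alone in limma 3.58.1 (R 4.3.3, trended eBayes, no block), with Benjamini-Hochberg adjustment over all genes tested. Family shares were compared with two-sided exact permutation tests in Python 3.11.15 with numpy 2.4.6, pandas 2.3.3 and scipy 1.17.1, and figures drawn with matplotlib 3.10.9. Gene positions came from GENCODE M21 and promoters from RefSeq. On simulated data with 200 changed genes, the fit recovered 0, 113 and 178 of them at log2 changes of 0.5, 1 and 2 in the osteoblast design (0, 3 and 15 false calls, 13004 genes) and 180, 197 and 199 in the MC3T3-E1 design (5, 6 and 12 false calls, 11466 genes).

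All 10 enzymes are named. From each of 4 pathway lists and each experiment, up to 5 genes past the adjusted threshold with the largest change are named, with the 2 genes nearest in pattern to 3 enzymes. The enzymes and lists were chosen with earlier results of these data known. Alternatives were a pseudocount of 0.1, no filter, a mean FPKM of at least 1, no trend, quantile normalization, scaling to the same sum of FPKM, a replicate block, osteoblast marker scaling (log2 values less the mean over *Sp7*, *Runx2*, *Bglap*, *Alpl*, *Ibsp*, *Dmp1*, *Phex* and *Spp1* in the library; sorted osteoblasts only), a 2-fold rule and leaving out each library.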

Additional observations from a re-analysis of the deposited data

How the results depend on the processing

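Of the alternative fits of single enzymes, 115 gave the same sign and side of the threshold with PTH, 20 lost and 1 gained a call and 4 changed sign, and with *Slpi* 114 were the same and 3 changed sign. Leaving out each library gave 0 to 6 enzymes called with PTH, 0 without vehicle replicate 1 or vehicle replicate 2 (6 in each case at an unadjusted limma p under 0.05), and 0 to 24 other pathway genes (26 unadjusted where 0), and the 2-fold rule gave 1 and 7, of which 2 were *Col1a1* and *Col1a2*, listed at 0. With *Slpi* the 2-fold rule, on log2(FPKM + 1), gave 0 enzymes and 0 other pathway genes, and leaving out a library gave 4 to 7 shares apart. Signs turned with osteoblast marker scaling for *Loxl1* (-0.03), *Loxl4* (-0.32) and *Plod2* (-0.33), with quantile normalization for *Plod2* (-0.20), and for *Plod3* with *Slpi* at -0.01 (quantile), -0.06 (equal sums of FPKM) and -0.02 (without *Slpi* replicate 1, against at most 0.06 without any other library). The cause was not tested.

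Over all genes, 1981 were called with PTH, 1310 without a filter (when 17487 were tested), 1 and 0 without vehicle replicate 1 and 2 (3181 and 3053 at an unadjusted limma p under 0.05), 577 without PTH replicate 1 and 3149 with osteoblast marker scaling. Of the calls 41.9% were higher, 31.5% after scaling to equal sums of FPKM and 3.72% with osteoblast marker scaling, and with *Slpi* 52.5%, or 35.4% with equal sums. In sorted osteoblasts the scaling to equal sums takes in *Col1a1* and *Col1a2*, which add to the sums of vehicle replicates 1 and 2 only. Relative to the median of -0.44 of all genes under osteoblast marker scaling, the direction of each called enzyme was as before.

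Same-numbered libraries deviated together little (r of 0.0294, 0.0735 and 0.102 with PTH and 0.0385, -0.0523 and -0.000264 with *Slpi*). Between libraries of different number r ran from -0.116 to 0.0688 with PTH and from -0.0988 to 0.105 with *Slpi*. With PTH every same-numbered r was positive, and whether the numbers mark a shared batch was not tested. A replicate block gave 6 and 8 enzymes called, 27 and 43 other pathway genes, and 2262 and 7172 of all genes against 1981 and 6973, and 8 and 6 shares with all 3 pairs in 1 direction, whose exact test cannot reach 0.05. In the osteoblast design the simulation recovered 0 of 200 genes changed by 0.5 on the log2 scale. With 200 changed genes its adjusted threshold was stricter than in the data, where 1981 genes were called. Its recovery therefore does not carry over to the data. A change of that size that misses the threshold there is still not shown to be absent.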
